A study of Mus musculus with 54 samples.

Results

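A heartbeat is driven by calcium that cycles between the cytosol and the sarcoplasmic reticulum, the internal calcium store of a muscle cell. The transcripts of 10 genes of this cycle were followed in hearts of 20-month-old mice treated with Cmpd60, a benzamide-based inhibitor of the histone deacetylases HDAC1 and HDAC2. The genes were Atp2a2, Pln, Sln, Ryr2, Casq2, Slc8a1, Trdn, Asph, Hrc and S100a1. They were found by gene symbol, through the Ensembl identifier of each row, and are 10 of the 54232 genes in the count tables. Natural aged male BL6 mice from a commercial breeder received daily intraperitoneal injections for 14 days, of 22.5 mg/kg Cmpd60 or of the DMSO, PEG400 and saline solution in which it was dissolved (vehicle). No genetic change was introduced, and all groups were of 1 sex and 1 age. RNA was sequenced from 5 Cmpd60-treated and 6 vehicle hearts, and for contrast from 6 and 6 brains and from 6 and 5 kidneys. Each library is taken as 1 mouse, and the labels do not tell which tissues came from the same mouse. The kidney groups follow the sample and source names, which the column headings of the study's kidney table also give, while the treatment field of the kidney labels states the opposite. Under that field every Cmpd60 effect given for the kidney would change sign and every vehicle kidney level would become the treated one, with the heart over kidney differences that rest on it.

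During each beat, a small inward calcium current opens the ryanodine receptor (Ryr2), and calcium leaves the store and starts contraction. For relaxation, the pump SERCA2 (Atp2a2) returns most of the calcium to the store, while the sodium-calcium exchanger (Slc8a1) moves the rest out of the cell. Phospholamban (Pln) and sarcolipin (Sln) are small membrane proteins that restrain the pump, and sarcolipin is made mainly in the atria. Inside the store, calsequestrin (Casq2) binds calcium and is linked to the release channel by triadin (Trdn) and junctin, a product of Asph, and the histidine-rich calcium-binding protein (Hrc) also binds calcium there. S100a1 is a small calcium-binding protein that acts on both the pump and the release channel.

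The heart libraries held 23584609 to 36634532 counts on genes with Cmpd60 (median 35445741) and 24182734 to 43792168 with vehicle (median 26830122). Levels are given as CPM, the counts of a gene per 1000000 counts of its library, with library sizes scaled by TMM. Defining cardiomyocyte markers were abundant in every heart, with a summed level of 8 genes of 74105 to 86732 CPM with vehicle and 72579 to 83636 CPM with Cmpd60. The 5 nephron and 3 neuronal markers summed to at most 8.45 and 11.4 CPM in any heart. A gene without counts in the smallest heart library may still have a level of up to 0.127 CPM, the equivalent of 3 counts. No pair of heart libraries held identical counts.

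The start regions of 6 of the 10 genes were matched in RefSeq (GRCm38.p6), and 4 are printed here because they cover the range from the most heart-restricted transcripts described below to one that is shared with the brain. Each line gives the 250 bases before the annotated start, 5′ to 3′ on the strand of the gene, with CpG dinucleotides in capitals. Pln lies at chr10:53337436-53337685 (+), Hrc at chr7:45335019-45335268 (+), Casq2 at chr3:102086165-102086414 (+) and Ryr2 at chr13:12106946-12107195 (−).
Pln: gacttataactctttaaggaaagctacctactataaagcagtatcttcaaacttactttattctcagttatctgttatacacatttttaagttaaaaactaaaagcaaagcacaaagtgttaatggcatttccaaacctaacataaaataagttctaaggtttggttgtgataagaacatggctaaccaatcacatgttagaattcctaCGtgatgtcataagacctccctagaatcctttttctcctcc
Hrc: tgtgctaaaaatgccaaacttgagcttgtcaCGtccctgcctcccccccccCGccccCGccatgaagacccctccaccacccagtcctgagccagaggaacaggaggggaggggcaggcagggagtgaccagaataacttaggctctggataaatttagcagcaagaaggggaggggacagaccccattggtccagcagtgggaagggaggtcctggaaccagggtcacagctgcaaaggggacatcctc
Casq2: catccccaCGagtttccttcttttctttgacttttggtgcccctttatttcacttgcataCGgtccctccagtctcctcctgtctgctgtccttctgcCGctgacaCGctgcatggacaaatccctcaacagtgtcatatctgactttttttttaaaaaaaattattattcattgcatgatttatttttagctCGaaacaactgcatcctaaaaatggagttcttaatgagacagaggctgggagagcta
Ryr2: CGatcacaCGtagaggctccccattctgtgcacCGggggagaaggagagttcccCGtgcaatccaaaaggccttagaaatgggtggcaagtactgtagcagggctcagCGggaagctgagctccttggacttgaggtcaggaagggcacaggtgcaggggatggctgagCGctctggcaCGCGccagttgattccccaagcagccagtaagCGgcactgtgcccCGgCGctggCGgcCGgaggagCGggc
The Pln region held 1 CpG, the Hrc region 3, the Casq2 region 5, the Slc8a1 and S100a1 regions 8 each and the Ryr2 region 14, beside a median of 6 over 32536 distinct start regions. Only 18.6% of those regions held as few CpG as Pln, while 72.5% held at most as many as Ryr2. The G and C content was 32.8% in Pln, 41.6% in Casq2, 50.4% in Slc8a1, 59.6% in Hrc, 61.6% in S100a1 and 63.2% in Ryr2, with a median of 52.4% over all regions. A match to the MEF2 motif was found in Casq2, 69 bases before the start, and in 2.89% of all regions. TGATAA or AGATAA, counted together since they share 5 letters, occurred in Pln at 183 and 82 bases and in Slc8a1 at 177 and 68 bases before the start, and in 16.5% of all regions. TATAAA was found in Pln at 219 bases and in 12.3% of all regions, GGGCGG in Hrc and in 33.0%, and CANNTG in each of the 6 but S100a1, and in 66.2%. No CArG motif, present in 1.48% of all regions, lay in these windows. Both strands were searched, and TATAAA and MEF2 matches can overlap. Such matches describe the letters of the window and are not sites of binding.

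The first question was where the 10 genes were expressed before any treatment effect. All 10 were higher in vehicle heart than in vehicle brain and than in vehicle kidney (edgeR quasi-likelihood test, adjusted p at most 7.32e-14 and 4.69e-13). Of all 24855 genes tested, 31.4% were called higher in heart than in brain and 28.8% higher than in kidney. The smallest differences were those of Asph, 2.40-fold over brain (95% confidence interval 2.19 to 2.64) and 3.31-fold over kidney (3.00 to 3.66). The genes are heart genes by choice, so that the direction is a check of the tissue labels.

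On a scale per length, as CPM per kb of exon, the pump was the highest of the 10 in vehicle heart. The mean level was 4036 ± 464 CPM per kb for Atp2a2 (SD, n = 6 for this and the following values) and 2491 ± 281 CPM per kb for Pln. Hrc at 590 ± 53.6 CPM per kb (590.4 before rounding) and S100a1 at 539.9 ± 38.8 CPM per kb lay within their spread of each other. Casq2 at 416 ± 38.0 CPM per kb and Sln at 333 ± 93.0 CPM per kb also lay within their spread. Ryr2 had 177 ± 22.6, Trdn 124 ± 10.7, Slc8a1 90.6 ± 13.4 and Asph 18.8 ± 1.02 CPM per kb. The long exon sets of Ryr2, 18.2 kb, and of Asph, 16.1 kb, lower their values on this scale. Asph yields the enzyme aspartate beta-hydroxylase as well as junctin and junctate, and gene counts cannot tell these products apart.

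**Figure D1:**
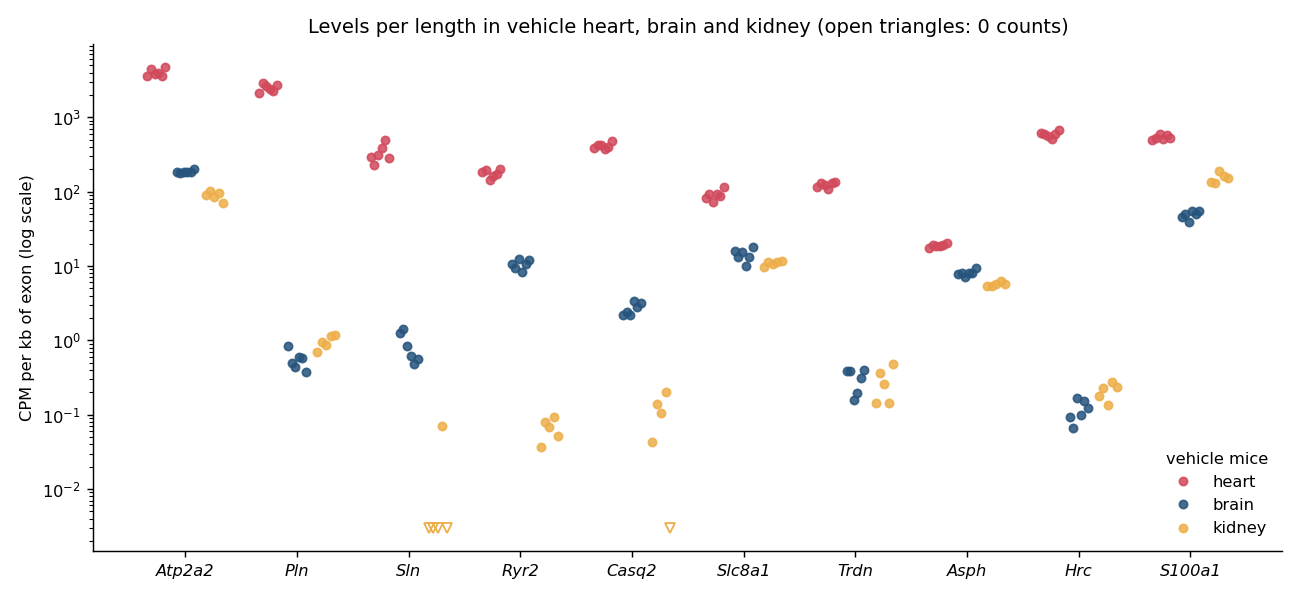
Level of each gene in CPM per kb of exon (log axis) in vehicle heart (red, 6 libraries), brain (blue, 6) and kidney (yellow, 5), 1 point per library, with libraries at 0 counts as open triangles at the foot of the axis. The heart points lie above all brain and kidney points for each of the 10 genes, by 4612-fold over brain for Pln and by 2.40-fold over brain for Asph.

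The genes fell into clear groups by how far heart stood above the other tissues. The inhibitor Pln had 5273, 6259 and 7085 CPM as lowest, median and highest value in vehicle heart, against 0.934, 1.34 and 2.06 CPM in vehicle brain. In vehicle kidney, the 5 libraries had 1.71 to 2.93 CPM. The Pln level in heart was 4612-fold that in brain (3542 to 6005) and 2589-fold that in kidney (1963 to 3414). Hrc was similar, at 1244, 1426 and 1628 CPM in heart, 0.158 to 0.402 CPM in brain and 0.322 to 0.657 CPM in kidney. For both genes, the ranges of brain and kidney overlapped.

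Casq2 was near background in kidney and low in brain, and Trdn was low in both. Casq2 had 1017, 1129 and 1317 CPM in vehicle heart, 6.02 to 9.16 CPM in brain and 0 to 0.548 CPM in kidney, where 39 counts were found over 5 libraries. Its heart level was 159-fold that of brain (122 to 208). Trdn had 493.3, 583 and 626 CPM in vehicle heart, 0.717 to 1.81 CPM in brain and 0.657 to 2.19 CPM in kidney, and the brain and kidney ranges overlapped. With the kidney groups exchanged, the Trdn range would be 0 to 0.481 CPM and would not overlap that of brain. Sln, the atrial inhibitor, had 118, 156 and 253 CPM in vehicle heart and 0.246 to 0.727 CPM in brain. A single Sln count was found in the 5 vehicle kidneys against 23733 in the 6 vehicle hearts, a ratio of 20497 per count sequenced (95% exact interval 3678 to 809631, for counting error only).

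The remaining genes were shared with brain, with kidney or with both. Atp2a2 had 1001, 1042 and 1146 CPM in vehicle brain and 403 to 579 CPM in kidney, below 20258, 22168 and 26892 CPM in vehicle heart, and the 3 tissues did not overlap. Ryr2 had 152 to 228 CPM in brain but 0.668 to 1.72 CPM in kidney, so that heart exceeded brain 17.2-fold (14.2 to 20.9) and kidney 2752-fold (2029 to 3734). Slc8a1 differed least among the transport genes, with 225 to 349.6 CPM in heart, 30.3 to 55.5 CPM in brain and 29.5 to 35.8 CPM in kidney. S100a1 was the only gene of the 10 whose vehicle kidney range (90.5 to 130.1 CPM) lay wholly above its vehicle brain range (26.8 to 38.2 CPM), and its heart range was 342 to 414 CPM. Among the 6 genes with a matched start region, the 3 with the fewest CpG (Pln, Hrc and Casq2) had heart levels 159-fold to 5113-fold those of brain, and the other 3 had 6.54-fold to 17.2-fold. Over kidney this split did not hold, since Ryr2, with the most CpG, was 2752-fold and Pln, Hrc and Casq2 were 2589-fold, 2805-fold and 4624-fold. With 6 genes this is a description, and no test was made.

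The central question was whether Cmpd60 changed these transcripts in the heart. None of the 10 was called at an adjusted p below 0.05 (edgeR quasi-likelihood test over 19452 genes), while 1.18% of all genes tested were called. Limma-voom and DESeq2 also called 0 of the 10. At an unadjusted p below 0.05 edgeR picked 1, Pln, beside 2626 of all 19452 genes tested. The median log2 fold change of the 10 was 0.01, against −0.00144 over all genes, and 6 were above 0 and 4 below. The groups overlapped for every gene of the set, and the share of all genes with overlapping groups was not counted. The intervals bound what could have been missed. For Atp2a2, Casq2, Ryr2, Trdn, Asph and S100a1, the 95% confidence interval lay between 0.82898-fold and 1.19-fold.

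**Figure D2:**
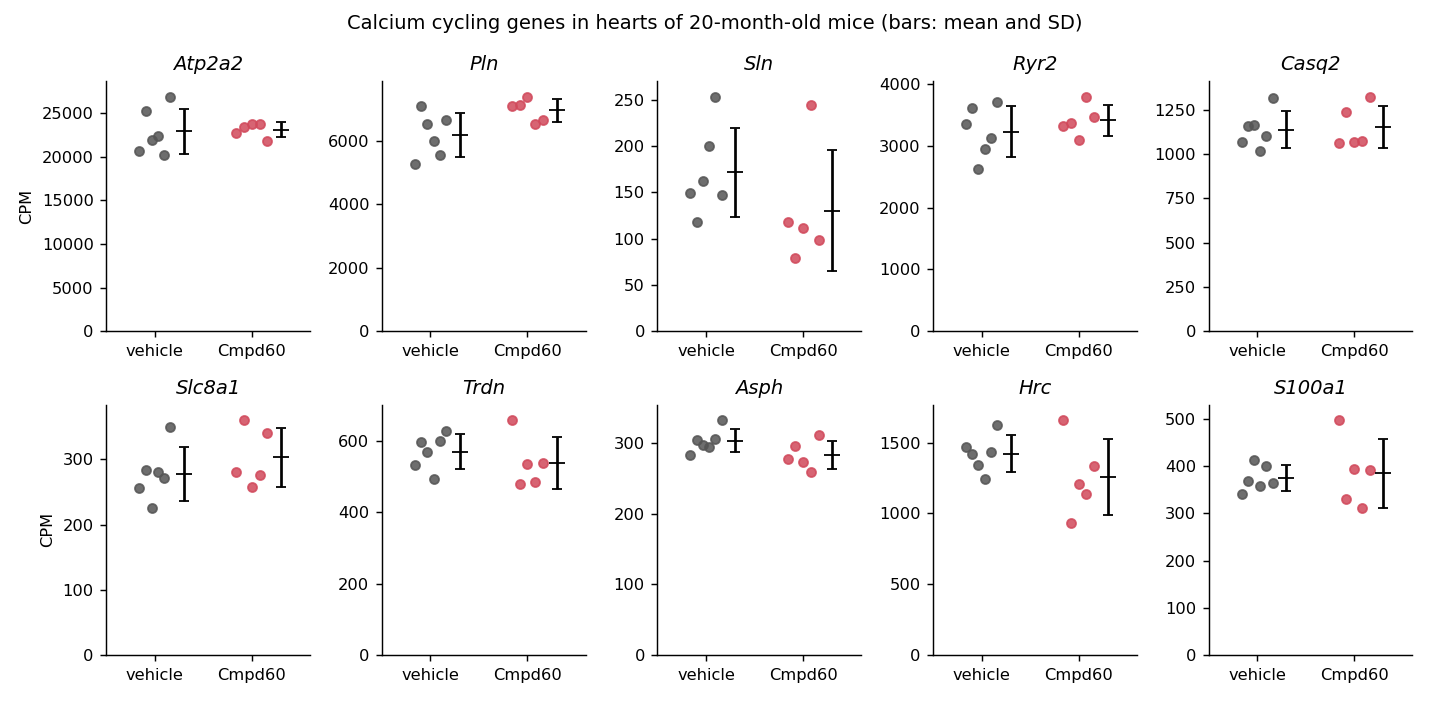
CPM of each gene in the 6 vehicle (grey) and 5 Cmpd60-treated (red) hearts, 1 point per library, with the mean and SD beside them and all axes from 0. The 2 groups overlap in all 10 panels, the 5 Cmpd60 points of Pln lie above the vehicle median of 6259 CPM, and 4 of the 5 Cmpd60 points of Sln lie below the lowest vehicle point.

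For the pump itself no difference was detected, and its interval was narrow. Atp2a2 had 22739, 23456, 23808, 23713 and 21789.8 CPM in the 5 Cmpd60-treated hearts, all inside the vehicle range of 20258 to 26892 CPM. The fold change was 1.003 (0.914 to 1.10, adjusted p = 0.989 by edgeR). The 5 treated hearts were closer together than the vehicle hearts, with an SD of 844 against 2630.3 CPM, and that difference in spread was not tested.

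Pln was the gene of the set with the smallest p. The treated hearts had 7098, 7133, 7387, 6538 and 6643 CPM, against 5273, 6259 and 7085 CPM as lowest, median and highest vehicle value. All 5 lay above the vehicle median and 3 above the highest vehicle heart. The fold change was 1.12 (1.02 to 1.23) with an unadjusted p of 0.024 and an adjusted p of 0.27 by edgeR. Over the alternatives run, the log2 fold change of Pln stayed between 0.13 and 0.21 and the adjusted p between 0.146 and 0.523, so that the higher Pln level did not pass the threshold.

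Sln had the largest difference in the set and the widest interval. The treated hearts had 117.5, 79.5, 111, 244.6 and 98.7 CPM, where 4 lay below the lowest vehicle heart (118.5 CPM) and replicate 071, at 244.6 CPM, lay near the highest (253 CPM). The fold change was 0.75 (0.522 to 1.08, adjusted p = 0.504 by edgeR). Without Cmpd60 replicate 071 the log2 difference moved from −0.42 to −0.77, with an adjusted p of 0.053, and without vehicle replicate 066 it was −0.25. The size of the Sln difference thus rested on single hearts.

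Since sarcolipin is an atrial protein, the 6 atrial markers Myl4, Myl7, Nppa, Bmp10, Sbk2 and Dkk3 were examined beside it. Their summed level was 3685 to 8627 CPM in vehicle hearts (median 4644) and 2756 to 7842 CPM in treated hearts (median 3533). All 6 had a log2 difference below 0, between −0.71 for Myl7, an atrial myosin light chain, and −0.04 for Nppa, which encodes atrial natriuretic peptide, and 0 of the 6 were called (smallest adjusted p = 0.0967, edgeR). Replicate 071 had the highest atrial sum of the treated hearts, as it had the highest Sln level, and vehicle replicate 066 had the highest of the vehicle hearts. The 2 ventricular markers Myl2 and Irx4 summed to 4266 to 5535 CPM and 4444 to 6676 CPM. How much atrium each heart sample held was not recorded in the labels, less atrial tissue and less Sln per cell cannot be told apart in bulk RNA, and the part of the atrial markers in the Sln values was not tested.

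**Figure D3:**
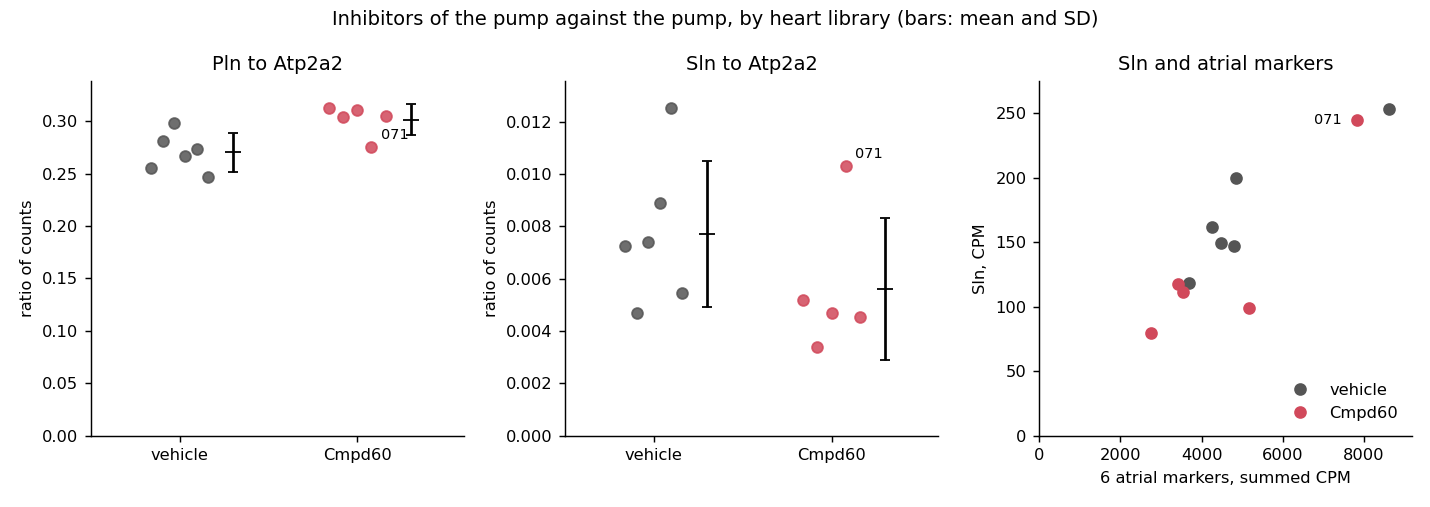
Counts of Pln (left) and Sln (middle) relative to Atp2a2 in each vehicle (grey) and Cmpd60-treated (red) heart, with mean and SD, and Sln against the summed CPM of 6 atrial markers (right). Cmpd60 replicate 071 has the lowest treated Pln ratio (0.276), the highest treated Sln ratio (0.0103) and, at 7842 CPM, the highest atrial sum of the treated hearts.

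Ratios within a library do not depend on library scaling, and the balance of inhibitor to pump was compared in this way. Pln counts were 0.27 ± 0.0184 times those of Atp2a2 in vehicle hearts (SD, n = 6) and 0.301 ± 0.0148 times in treated hearts (n = 5). In 4 of the 5 treated hearts the ratio, at 0.304 to 0.312, was above every vehicle heart (0.247 to 0.298), and in replicate 071 it was 0.276. The log2 difference was 0.16, with an exact two-sided permutation p of 0.013 and an adjusted p of 0.0519 over the 4 ratios compared, where the smallest possible p was 0.00433. Without replicate 071 the adjusted p was 0.0381 by the same exact test. The call therefore turned on 1 heart.

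The other balances showed no difference beyond the spread. The Sln to Atp2a2 ratio was 0.0077 ± 0.00279 with vehicle and 0.00562 ± 0.00271 with Cmpd60 (log2 difference −0.49, exact permutation p = 0.16, adjusted p = 0.32), and without replicate 071 the log2 difference was −0.74 with an adjusted exact p of 0.0381. The ratio of the store protein Casq2 to the release channel Ryr2 was 0.356 ± 0.0462 and 0.339 ± 0.039 (exact permutation p = 0.524). The ratio of the exchanger Slc8a1 to the pump, the routes of calcium removal, was 0.0121 ± 0.00117 and 0.0132 ± 0.00221 (exact permutation p = 0.377), and the difference of the medians was of opposite sign. Counts of different genes also reflect their lengths, so that only the comparison between groups is read from these ratios.

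Of the release complex, Ryr2 had 3324, 3374, 3096, 3792 and 3471 CPM with Cmpd60 and 2615, 3229 and 3709 CPM as lowest, median and highest value with vehicle. The fold change was 1.05 (0.933 to 1.19). Casq2 had 1061, 1236, 1066, 1073 and 1324 CPM with Cmpd60 against 1017, 1129 and 1317 CPM with vehicle, a fold change of 1.01 (0.901 to 1.13). Trdn had 656.9, 478, 534.8, 483 and 537 CPM against 493.3, 583 and 626 CPM, a fold change of 0.939 (0.82898 to 1.06). Of the 5 treated hearts, 4 lay above the vehicle median for Ryr2, 2 for Casq2 and 1 for Trdn. For Trdn, 2 treated hearts lay below all vehicle hearts and 1 above.

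Asph and Hrc were lower in most treated hearts without passing the test. Asph had 278, 295, 273, 259 and 311 CPM with Cmpd60, with 3 hearts below the vehicle range of 283 to 332 CPM, and a fold change of 0.928 (0.847 to 1.02, adjusted p = 0.483 by edgeR). Hrc had 1657, 935, 1210.4, 1138 and 1336 CPM, with 3 hearts below and 1 above the vehicle range of 1244 to 1628 CPM, and a fold change of 0.877 (0.742 to 1.04, adjusted p = 0.512 by edgeR). The spread of Hrc was wider in treated hearts (SD 268 CPM) than in vehicle hearts (129 CPM).

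The exchanger Slc8a1 had 280.0, 359.9, 257, 277 and 341 CPM with Cmpd60 and 225, 277 and 349.6 CPM with vehicle, a fold change of 1.08 (0.932 to 1.26). S100a1 had 497, 329.7, 395, 312 and 391 CPM with Cmpd60 and 342, 367 and 414 CPM with vehicle, a fold change of 1.02 (0.878 to 1.18). In S100a1, 1 treated heart (replicate 068) was above and 2 were below all vehicle hearts. Replicate 068 was also the highest of the treated hearts for Trdn and Hrc. After group means were removed, Trdn, Hrc and S100a1 correlated with each other over the 11 hearts (Pearson r 0.877, 0.825 and 0.718 for Trdn with Hrc, Trdn with S100a1 and Hrc with S100a1), and Casq2 correlated with Asph (r = 0.862). Atp2a2 and Pln had r = 0.63 and Pln and Sln r = −0.53. These are descriptions over libraries that share scaling and tissue sampling, and 28 of the 45 pairs were above 0.

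The genes whose deviations from the group means followed those of a member most closely over the 11 hearts, of 13771 compared, were chosen by this likeness, so high values are part of the choice. The measure leaves out the difference between groups. For Atp2a2 they were Zfp384 (r = 0.955), Fh1 (r = 0.951) and Pdha1 (r = 0.933). Fh1 encodes fumarate hydratase and Pdha1 a subunit of pyruvate dehydrogenase, enzymes of mitochondrial energy metabolism. Fh1 was itself lower with Cmpd60 (log2 fold change −0.30, adjusted p = 0.0245 by edgeR), while Atp2a2 was not called. For Pln they were Ubl7 (r = 0.938), Chmp7 (r = 0.935) and Usp15 (r = 0.925). For Sln they were Tbx5, a cardiac transcription factor (r = 0.958), the atrial marker Dkk3 (r = 0.933) and the calcium channel subunit gene Cacna2d2 (r = 0.906). The other 5 atrial markers had r between 0.754 and 0.904 with Sln. For the summed atrial list r was 0.862 and Spearman's rho 0.636, and r fell to 0.468 without the 2 hearts farthest from the median of that sum (vehicle replicate 066 and Cmpd60 replicate 071), so that the relation rested largely on these.

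In brain and kidney the question was whether the members responded outside the heart. In brain, 0 of the 10 were called, with 0.0205% of all genes called. By edgeR, 2 (Ryr2 and S100a1) had an unadjusted p below 0.05, as had 3368 of all 24438 genes tested. Limma-voom and DESeq2 also called 0 in brain. Brain Ryr2 was 192 to 274 CPM with Cmpd60 and 152 to 228 CPM with vehicle (log2 fold change 0.20, adjusted p = 0.36), and brain S100a1 was 27.4 to 31.9 CPM and 26.8 to 38.2 CPM (log2 fold change −0.20, adjusted p = 0.251). Without vehicle replicate 029 S100a1 was called in brain (log2 fold change −0.26, adjusted p = 0.0438 by edgeR). That fit called 372 genes over the whole brain, where the fit of all brain libraries called 5.

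**Figure D4:**
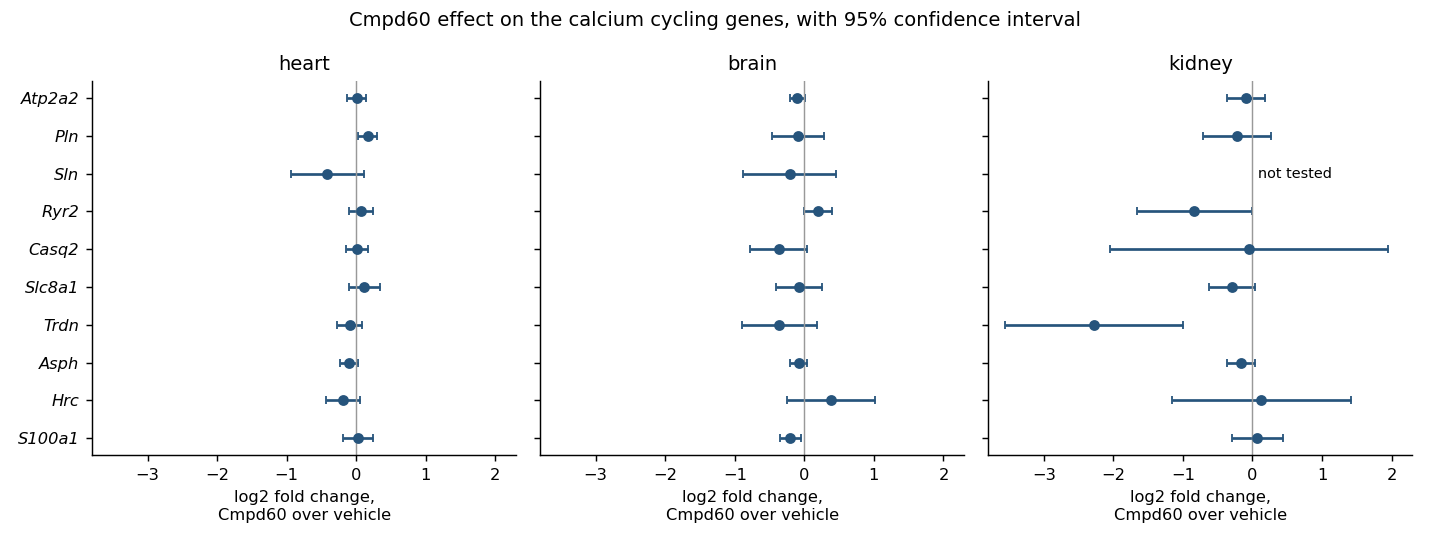
Log2 fold change of each gene, Cmpd60 over vehicle, with its 95% confidence interval, in heart (5 against 6 libraries), brain (6 against 6) and kidney (6 against 5, by sample names). In heart the 10 values lie between −0.42 (Sln) and 0.16 (Pln), and in kidney Trdn stands at −2.28 with an interval below 0 but an adjusted p of 0.141.

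In kidney, where Atp2a2, S100a1, Asph and Slc8a1 were well covered and the other members were scarce, 0 of the 9 tested members were called by edgeR, with 0.3% of all genes called, and Sln had too few counts to be tested. Trdn stood apart at an unadjusted p of 0.00178 and an adjusted p of 0.141. The 6 treated kidneys had 6, 7, 13, 14, 9 and 0 Trdn counts (0 to 0.481 CPM) and the 5 vehicle kidneys 23, 52, 33, 18 and 89 counts (0.657 to 2.19 CPM), and the groups did not overlap. The share of all genes whose kidney groups did not overlap was not counted. Ryr2 was 0.375 to 1.13 CPM with Cmpd60 and 0.668 to 1.72 CPM with vehicle (log2 fold change −0.84, unadjusted p = 0.0466, adjusted p = 0.432). DESeq2 called Trdn in kidney (adjusted p = 0.00535) and limma-voom did not call any member. Over the whole kidney DESeq2 called 429 genes, where edgeR called 62. The summed level of the 8 cardiomyocyte markers was 1.96 to 15.7 CPM in vehicle and 2.95 to 12.5 CPM in treated kidneys, and that of the 7 skeletal muscle markers was 1.42 to 2.02 and 2.56 to 3.54 CPM, with Myh2 and Myh4 at 0 in all kidneys. Their part in the Trdn values was not tested.

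The difference between tissues was tested directly in a fit of all 34 libraries. The methods name fewer mice than libraries, so that tissues of the same mouse entered this fit, and the vehicle tissue comparison, as if independent. Between heart and brain, 0 of the 10 members had a different Cmpd60 effect (0.0517% of 27105 genes called, 0 of the 10 at an unadjusted p below 0.05, and 0 by limma-voom and DESeq2). Between heart and kidney, 1 was called, Trdn, with 0.35% of all genes called. Sln, too scarce to be tested in kidney alone, entered this fit through its heart and brain counts. Its heart minus kidney value (log2 interval −5.72 to 3.94) therefore cannot be read. The log2 effect of Cmpd60 on Trdn was 2.27 higher in heart than in kidney (standard error 0.437, adjusted p = 0.0106 by edgeR). In the separate fits of each tissue, the heart value was −0.09 and the kidney value −2.28. Limma-voom did not call this difference (adjusted p = 0.0959), and DESeq2 called it and that of Ryr2. Over all genes DESeq2 called 515 heart minus kidney differences, where edgeR called 95. The direction of the difference holds for the kidney groups as given by the sample names.

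Other genes of calcium handling were examined in heart as 5 lists. Of 71 genes tested among the 72 listed, 3 rose and 1 fell at an adjusted p below 0.05 by edgeR, or 5.63%, beside 1.18% of all genes. The lists were chosen with earlier results of these data known, so these shares are a description. Without Cmpd60 replicate 072 only 1 listed gene was called. At an unadjusted p below 0.05 were 16 of the 71 genes and 2626 of all 19452 genes. The median log2 fold change was 0.00205 in the lists and −0.00144 over all genes. In the list of pump relatives and regulators, which includes the related pumps Atp2a1 and Atp2a3, 0 of 6 tested genes were called, as was the case for 21 genes of adrenergic signalling, kinases and phosphatases and for 8 genes of mitochondrial calcium transport. These counts compare with 5 genes at an unadjusted p below 0.05 in the adrenergic list, 1 in the mitochondrial list and 0 in the pump list.

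**Figure D5:**
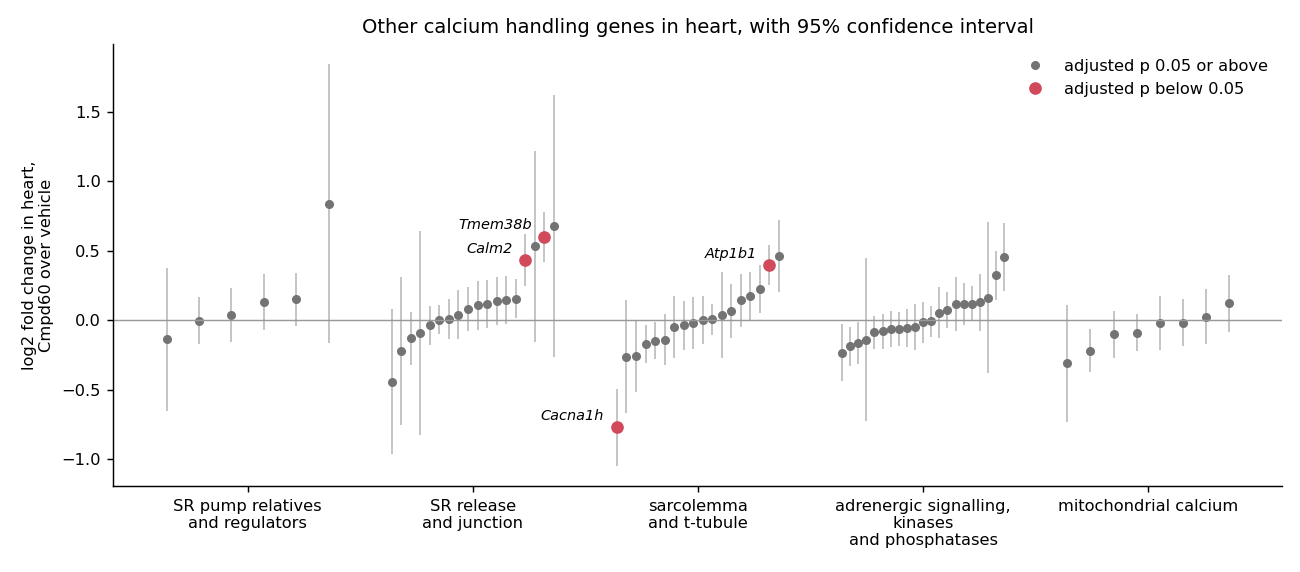
Log2 fold change in heart with 95% confidence interval for the 71 other calcium handling genes tested, ordered within 5 lists, with genes at an adjusted p below 0.05 in red. Tmem38b (0.60), Calm2 (0.43) and Atp1b1 (0.40) lie above 0 and Cacna1h (−0.77) below, and the mitochondrial list holds no red point.

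Of the 18 genes of release and junction, Tmem38b and Calm2 rose. Tmem38b, which encodes TRIC-B, a cation channel of the reticulum membrane that carries counter-ions during calcium release, had 75.3, 100.02, 80.7, 71.5 and 75.0 CPM with Cmpd60 and 45.3, 53.6 and 59.7 CPM as lowest, median and highest vehicle value. All 5 treated hearts lay above all vehicle hearts (log2 fold change 0.60, standard error 0.0849, adjusted p = 0.00592 by edgeR). Calm2, which encodes calmodulin, had 137 to 193 CPM with Cmpd60 and 112 to 132 CPM with vehicle (log2 fold change 0.43, adjusted p = 0.028 by edgeR). The Calm2 call was lost without Cmpd60 replicate 069 or 072 or vehicle replicate 063, 065 or 067, with adjusted p up to 0.0905 by edgeR.

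Of the 18 genes of the surface membrane and its tubules, Atp1b1 rose and Cacna1h fell. Atp1b1, the beta subunit of the sodium pump, had 349 to 445 CPM with Cmpd60 and 274 to 320.2 CPM with vehicle (log2 fold change 0.40, adjusted p = 0.015 by edgeR). Cacna1h, a T-type calcium channel gene, had 35.6 to 60.5 CPM with Cmpd60 and 62.4 to 85.2 CPM with vehicle, and fell by 0.77 on the log2 scale (adjusted p = 0.015 by edgeR). Replicate 071, with the highest atrial sum of the treated hearts, had the 60.5 CPM, and the other treated hearts had 35.6 to 40.3 CPM. Vehicle replicate 066, with the highest vehicle atrial sum, had 73.3 CPM, inside the vehicle range. The part of atrial tissue in the Cacna1h values was not tested. The groups did not overlap for any of the 4 called genes. These were picked by their calls from the same values, so the separation adds no support, and its share over all genes was not counted. Without Cmpd60 replicate 072 only Tmem38b kept its call, and the number of called genes over the whole heart fell from 229 to 36. DESeq2 called 7 listed genes, beside 746 genes over the whole heart.

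The markers of other heart cells were read beside these results. Of the 8 cardiomyocyte markers, Mybpc3, which encodes cardiac myosin-binding protein C, fell by 0.42 on the log2 scale (2597 to 3366 CPM with Cmpd60 and 3685 to 4592 CPM with vehicle, adjusted p = 0.0157 by edgeR) and 0 of the other 7 were called. The 7 fibroblast markers summed to 1260 to 1632 CPM with vehicle and 1375 to 1534 CPM with Cmpd60, and the 6 mural markers to 1454 to 1681 CPM and 1304 to 1835 CPM. The 5 endothelial markers summed to 1021 to 1095 CPM and 1091 to 1449.8 CPM and the 5 macrophage markers to 154.3 to 238 CPM and 197 to 245 CPM, with all 5 of each list above 0 in log2 difference and 0 called. Lymphocyte markers were low, at 2.45 to 7.57 CPM with vehicle and 0.867 to 2.21 CPM with Cmpd60. All 4 were below 0 in log2 difference and 0 were called (smallest adjusted p = 0.0755, edgeR). Skeletal muscle markers were also low, at 2.78 to 4.67 and 3.72 to 5.61 CPM with Myh4 at 0. The 6 of them tested were above 0 in log2 difference and 0 were called. Adipocyte markers ranged from 1.37 to 204 CPM and from 4.33 to 141.7 CPM between hearts, and the 2 globin genes found in the files from 558 to 2064 CPM and from 514 to 1857 CPM. The part of these cell types in the values above was not tested.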

How the data were processed

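Polyadenylated RNA of homogenized tissue was sequenced for the authors by Genome Scan. Per the submitters' processing notes and the study's methods, reads were checked with FastQC, trimmed with Trimmomatic 0.32, aligned with HISAT2 2.1.0 and counted per Ensembl gene with HTSeq 0.11.0, using read direction. The authors deposited raw counts without normalization. The genome build is not given in the sources used here. Of 54 libraries, the 34 of 20-month-old mice were used, and 20 of a dementia model and its littermates were not analysed here. The 5 summary lines that name no gene held 16.6 to 22.1% of each total and were left out.

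A gene entered a fit if 3 or more of the fitted libraries held over 2 counts of it, and counts were scaled by TMM and tested with edgeR 4.0.16 (quasi-likelihood, Benjamini-Hochberg). Each tissue was fitted on its own for Cmpd60, the vehicle libraries together for tissue levels, and all 34 for differences between tissues. Intervals are 95% and come from the fit. CPM values are scaled over the 34 libraries, and exon lengths are the merged exons of 1 older annotation (GENCODE vM1), used only for CPM per kb. Ratios were tested by exact two-sided permutation in SciPy 1.17.1. The p-values measure the spread between libraries. Limma-voom, the study's own method, run here in version 3.58.1, and DESeq2 1.42.0, other filters and scalings, and each library left out in turn were the alternatives. The tests were checked on simulated counts. Start regions are from RefSeq.

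The members and lists were chosen with earlier results of these data known. Named besides the members are, per list, up to 3 genes per direction with the largest change among genes called in heart whose mean CPM reached 1, and the 3 genes most correlated with Atp2a2, Pln and Sln. Of the 72 listed pathway genes, Strit1 could not be matched to an identifier. Some results on listed genes are not reported here.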

Additional observations from a re-analysis of the deposited data

Results flagged for a closer look

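A sample far from the others of its group was looked for in 68 groups of values, the 10 genes in 6 groups and the 4 ratios in both heart groups. In all, 7 were found, where chance alone gives about 1 in 20 groups of separate, continuous values. The 7 cannot be read against that rate, since 3 come from 1 library and both kidney Sln flags follow from a single library above 0. In Cmpd60-treated hearts, replicate 071 had 244.6 CPM of Sln against 79.5 to 117.5 CPM in the other 4, a Sln to Atp2a2 ratio of 0.0103 against 0.00339 to 0.00517, and a Pln to Atp2a2 ratio of 0.276 against 0.304 to 0.312. These 3 values come from 1 library, the first 2 share the Sln count, and the atrial sum of that heart was 7842 CPM beside a median of 3533 CPM in the treated hearts. In vehicle hearts, replicate 064 had a Casq2 to Ryr2 ratio of 0.445 against 0.319 to 0.355, with the lowest Ryr2 level of the 6 hearts (2615 CPM).

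In vehicle brain, replicate 032 had 1146 CPM of Atp2a2 against 1001 to 1048 CPM in the other 5. In kidney, Sln was at 0 in all libraries but vehicle replicate 048 (0.0365 CPM, 1 count) and Cmpd60 replicate 051 (0.0693 CPM, 2 counts), both below 0.119 CPM, the level equal to 3 counts in the smallest kidney library.

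A difference between tissues was found for Trdn, whose log2 Cmpd60 effect was 2.27 higher in heart than in kidney (adjusted p = 0.0106, edgeR). Trdn was lower in all 6 treated kidneys than in all 5 vehicle kidneys, at no more than 89 counts in any kidney. In heart 1 treated library lay above and 2 below all 6 vehicle libraries. Trdn was flagged from these same values, so the separation in kidney adds no support, and its share over all genes was not counted. The edgeR difference remained called with each library left out in turn, with adjusted p between 0.00597 and 0.0436. It lost its call with limma-voom (adjusted p = 0.0959).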

How the results depend on the processing

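None of the 10 genes was called in heart by edgeR, limma-voom or DESeq2, under either other count filter, with DESeq2 size factors, with scaling to cardiomyocyte markers, or with any 1 library left out, and all 10 were higher in vehicle heart than in vehicle brain and kidney under every alternative run. Over the whole heart, DESeq2 called 746 genes where edgeR called 229 (147 of them higher) and limma-voom 245, and leaving out 1 library gave 36 to 247. Scaling to cardiomyocyte markers moved the median of all genes to 0.0492 on the log2 scale and left 179 calls, 157 of them higher. In kidney, DESeq2 called 429 genes against 62, in brain 401 against 5, in the heart minus brain difference 176 against 14, and in the heart minus kidney difference 515 against 95, where limma-voom called 60.

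Of the listed pathway genes, 4 were called, 7 by DESeq2, and 1 (without Cmpd60 replicate 072) to 5 with a library left out. Among the members, the kidney count went from 0 to 1 by DESeq2, the brain count was 0 to 1 with a library left out, and the heart minus kidney count went from 1 to 0 by limma-voom and to 2 by DESeq2. The brain fit without vehicle replicate 029 called 372 genes. By limma-voom the log2 value changed sign for Casq2 (0.0639) and Hrc (−0.44) in kidney and for Casq2 (0.0580) and Hrc (0.26) in the heart minus kidney difference, and by DESeq2 for Casq2 in that difference (0.0201). The Slc8a1 to Atp2a2 ratio compared by medians gave −0.0164. None of these 6 values was called under either setting, and the cause was not tested.

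With each library left out in turn, log2 values that changed sign ranged in heart from −0.0175 to 0.0414 (Atp2a2), −0.0518 to 0.0457 (Casq2) and −0.0851 to 0.0953 (S100a1), and in brain from −0.18 to 0.0599 (Pln) and −0.20 to 0.0222 (Slc8a1). In kidney they ranged from −0.38 to 0.40 (Casq2), −0.0521 to 0.38 (Hrc) and −0.0894 to 0.17 (S100a1), and in the heart minus kidney difference from −2.29 to 1.002 (Sln), −0.48 to 0.36 (Casq2) and −0.14 to 0.13 (S100a1). The Sln range holds almost no kidney information, since Sln had too few kidney counts to be tested there. The log2 difference of the Pln to Atp2a2 ratio ranged from 0.13 to 0.19 and that of Sln to Atp2a2 from −0.74 to −0.33, and both passed the threshold only without Cmpd60 replicate 071.

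No paired analysis was possible because the groups share no replicate numbers. Depth limits the kidney values of Trdn, Ryr2, Casq2, Hrc and Sln, which rest on few counts, and the direction of every kidney effect rests on the sample and source names and the headings of the study's kidney table, against the treatment field. In heart, the intervals of Sln and Hrc are too wide to bound a difference closely.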
